A study of Mus musculus with 4 samples.

Results

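The Hoxa and Hoxd clusters are the 2 sets of neighbouring Hox genes on mouse chromosomes 6 and 2. Their DNA methylation was read in thymic natural killer T (NKT) cells by MeDIP-seq, a pull-down of methylated DNA followed by sequencing. The members are all 100 bp windows of the deposited table within 2 regions of 300 kb (mm10), chr6:52050001-52350000 for Hoxa and chr2:74550001-74850000 for Hoxd. They number 622 of 1048575 listed windows, 473 in the Hoxa region and 149 in the Hoxd region. Within each region the cluster was taken from the outermost annotated bases of its Hox genes. The Hoxa cluster, 105.6 kb in windows, held 211 listed windows. The Hoxd cluster, from Hoxd13 to Hoxd1, spans positions 74668225 to 74765142 and held 33. The remaining 262 and 116 windows lay in the flanks.

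The study sorted thymocytes that bind a CD1 tetramer from PLZFon mice and from wild-type (WT) mice, both C57BL/6. PLZF is the transcription factor that directs the development of NKT cells. The 4 libraries were PLZFon MeDIP, WT MeDIP, PLZFon input and WT input, 1 library each, where input is sonicated DNA that was not pulled down. The PLZFon allele, the age of the mice and the number of mice behind a library are not given in the sources used here. The antibody label goes against the titles, giving no antibody for either PLZFon library and an antibody against 5-methylcytosine for the WT input. The groups therefore follow the titles. The enrichment of each MeDIP library over its input is given, but windows were listed by their MeDIP reads, so it is no independent check of the labels. The libraries held 10635946 (PLZFon MeDIP), 15143451 (WT MeDIP), 50365402 (PLZFon input) and 60689327 reads (WT input), as recovered from the deposited values. With no replicates there is no test, and each difference is one between libraries. Intervals are 95% exact binomial ones for counting error alone.

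Hox genes encode homeodomain transcription factors that give cells their position along the body axis. In each cluster they lie in the order of their paralog groups, so that low-numbered (anterior) genes stand at one end and high-numbered (posterior) genes at the other. In cells that do not use them, Hox clusters are a textbook case of Polycomb repression over CpG islands, stretches rich in CpG that usually lack DNA methylation. MeDIP reads follow both the methylation of a stretch and its number of CpG, so a CpG-poor stretch and an unmethylated one can give equally few reads. A partly methylated stretch and a mixture of methylated and unmethylated cells cannot be told apart.

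A window was listed where the MeDIP libraries together had 10 or more reads and the window held a CpG. Its CpG factor in the deposited table was its number of CpG: in 2642 of 2642 listed windows that lie within a RefSeq promoter sequence, the factor equalled the count from the sequence. An unlisted window is therefore one with few or no MeDIP reads, or no CpG, and is not a measured 0.

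The RefSeq promoter sequences (GRCm38.p6, the primary assembly of mm10), from 250 bases before to 50 after the gene's start, show the contrast within the clusters. They matched 18 of the 20 Hox genes. Among the matched Hox promoters, the first 3 below are those with the most CpG that no listed window overlapped. The other 2 are the only matched ones that listed windows overlapped. Capitals mark CpG.

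Hoxa13 promoter, chr6:52260831-52261130, minus strand: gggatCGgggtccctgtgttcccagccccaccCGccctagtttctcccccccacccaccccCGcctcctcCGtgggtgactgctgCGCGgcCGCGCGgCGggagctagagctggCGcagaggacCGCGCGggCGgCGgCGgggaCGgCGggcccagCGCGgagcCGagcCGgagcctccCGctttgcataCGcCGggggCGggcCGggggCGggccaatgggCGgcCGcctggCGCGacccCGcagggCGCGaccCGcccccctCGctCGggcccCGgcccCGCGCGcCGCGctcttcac
Hoxd13 promoter, chr2:74667975-74668274, plus strand: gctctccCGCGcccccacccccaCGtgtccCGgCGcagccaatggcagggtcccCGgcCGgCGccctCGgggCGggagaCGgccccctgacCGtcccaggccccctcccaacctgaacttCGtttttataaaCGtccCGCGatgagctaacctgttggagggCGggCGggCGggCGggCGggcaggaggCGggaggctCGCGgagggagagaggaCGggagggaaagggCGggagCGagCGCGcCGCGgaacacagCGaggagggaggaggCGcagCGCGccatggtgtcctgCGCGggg
Hoxd1 promoter, chr2:74762730-74763029, plus strand: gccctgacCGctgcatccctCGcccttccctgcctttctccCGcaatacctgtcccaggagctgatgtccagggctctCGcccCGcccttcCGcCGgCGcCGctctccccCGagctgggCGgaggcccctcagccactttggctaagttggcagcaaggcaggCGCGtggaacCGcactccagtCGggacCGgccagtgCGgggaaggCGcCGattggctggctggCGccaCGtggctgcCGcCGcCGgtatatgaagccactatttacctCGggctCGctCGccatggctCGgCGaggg
Hoxa5 promoter, chr6:52204538-52204837, minus strand: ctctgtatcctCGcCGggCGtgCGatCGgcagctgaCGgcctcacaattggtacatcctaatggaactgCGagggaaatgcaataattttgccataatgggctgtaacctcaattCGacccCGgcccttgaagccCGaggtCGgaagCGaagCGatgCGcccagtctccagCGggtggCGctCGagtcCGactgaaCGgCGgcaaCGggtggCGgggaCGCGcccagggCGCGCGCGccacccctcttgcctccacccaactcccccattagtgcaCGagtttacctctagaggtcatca
Hoxa7 promoter, chr6:52218524-52218823, minus strand: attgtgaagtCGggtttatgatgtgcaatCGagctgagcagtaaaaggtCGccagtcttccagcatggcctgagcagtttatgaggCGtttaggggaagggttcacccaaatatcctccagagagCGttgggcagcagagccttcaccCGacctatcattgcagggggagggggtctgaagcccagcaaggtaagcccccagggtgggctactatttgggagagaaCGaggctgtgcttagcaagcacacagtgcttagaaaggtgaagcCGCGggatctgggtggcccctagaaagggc

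The Hoxa13 promoter holds 45 CpG, that of Hoxd13 37 and that of Hoxd1 29, and none of them had a listed window. The Hoxa5 promoter also holds 29 CpG, yet 4 listed windows overlapped it. The Hoxa7 promoter holds 9 CpG and was overlapped by 4 listed windows as well.

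The first comparison asked whether the clusters held more or fewer listed windows than their flanks, and they went opposite ways. The Hoxa cluster held 2.0 listed windows per kb, against 1.35 per kb in its flanks, a density ratio of 1.48 (95% interval 1.23 to 1.78). The Hoxd cluster held 0.340 per kb, against 0.571 per kb in its flanks, a ratio of 0.595 (0.392 to 0.883). The Hoxd interval took in 1 when windows needed at least 20 MeDIP reads (0.444, 0.166 to 1.02) or at least 3 CpG (0.868, 0.462 to 1.56). The Hoxa cluster was thus 5.87 times as dense as the Hoxd cluster (4.06 to 8.75), while the whole table averaged 0.941 per kb. Neighbouring windows share reads, so these intervals are too narrow. Among 10544 tiles of the length of the Hoxa cluster over the listed range the median was 0.758 per kb, and 9.71% of tiles were denser than the Hoxa cluster. Among 11479 tiles of the length of the Hoxd cluster, 23.3% were sparser than the Hoxd cluster. The Hoxa ratio depended on the bounds: with Evx1, the homeobox gene beyond Hoxa13, counted in the cluster, it was 1.01 (0.837 to 1.21). With at least 20 MeDIP reads per window it was 2.79 (2.11 to 3.70), and with at least 3 CpG per window 2.33 (1.77 to 3.07).

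**Figure D1:**
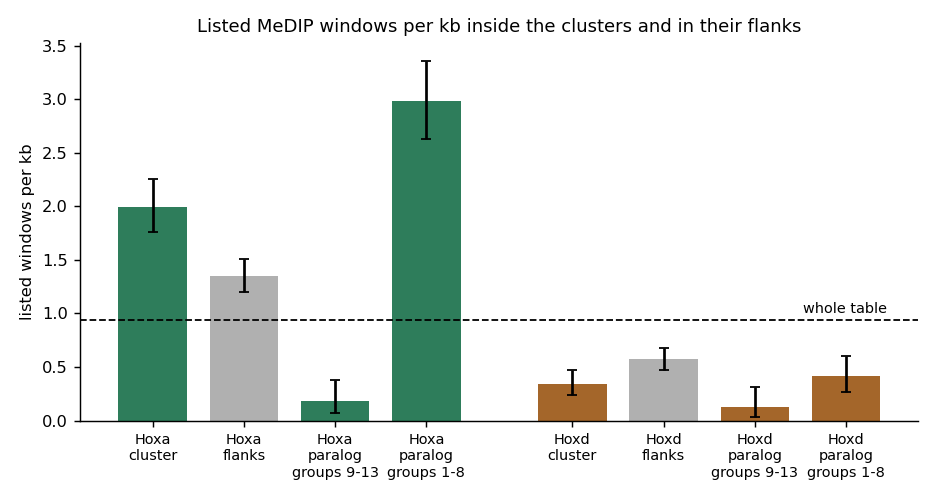
Listed windows per kb in each cluster, its flanks, and its posterior (paralog groups 9-13) and anterior (groups 1-8) stretches, for Hoxa (green) and Hoxd (brown), with flanks in grey. Error bars are 95% exact binomial intervals of the share of windows listed, and the dashed line is the whole table at 0.941 per kb; the anterior Hoxa stretch stands above every other bar.

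Within both clusters the posterior end was sparse. This split was looked at with the data in view. In Hoxa, the stretch from Hoxa9 to Hoxa13 held 7 listed windows over 37.9 kb, 0.185 per kb, against 189 windows over 63.3 kb, 2.99 per kb, in the anterior stretch up to Hoxa7. The density ratio was 0.0619 (0.0245 to 0.130). The posterior stretch made up 35.9% of the length of the Hoxa cluster and 3.32% of its listed windows. Taken alone, it was sparser than the flanks of the cluster, with a ratio of 0.137 (0.0546 to 0.286). In Hoxd, the stretch from Hoxd9 to Hoxd13 held 4 listed windows over 32.1 kb, 0.125 per kb, against 25 windows over 60.6 kb, 0.413 per kb, from Hoxd1 to Hoxd8. The ratio there was 0.302 (0.0764 to 0.875). The 4 posterior Hoxd windows adjoin, from 74681201 to 74681600, and the 7 posterior Hoxa windows form groups of 5 and 2 neighbours. Neighbouring windows share reads, so all intervals of this split are too narrow. Whether the Hoxd interval would still exclude 1 with shared reads allowed for was not tested. Set against the flanks, the anterior Hoxd stretch stood at 0.722 (0.449 to 1.12) and the posterior one at 0.218 (0.0584 to 0.574). The flanks were uneven too. In Hoxa the flank beyond Hoxa13 held 1.03 windows per kb, against 1.61 in the flank at the anterior end. In Hoxd the flank beyond Hoxd1 held 0.837 per kb, against 0.381 in the flank before Hoxd13.

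**Figure D2:**
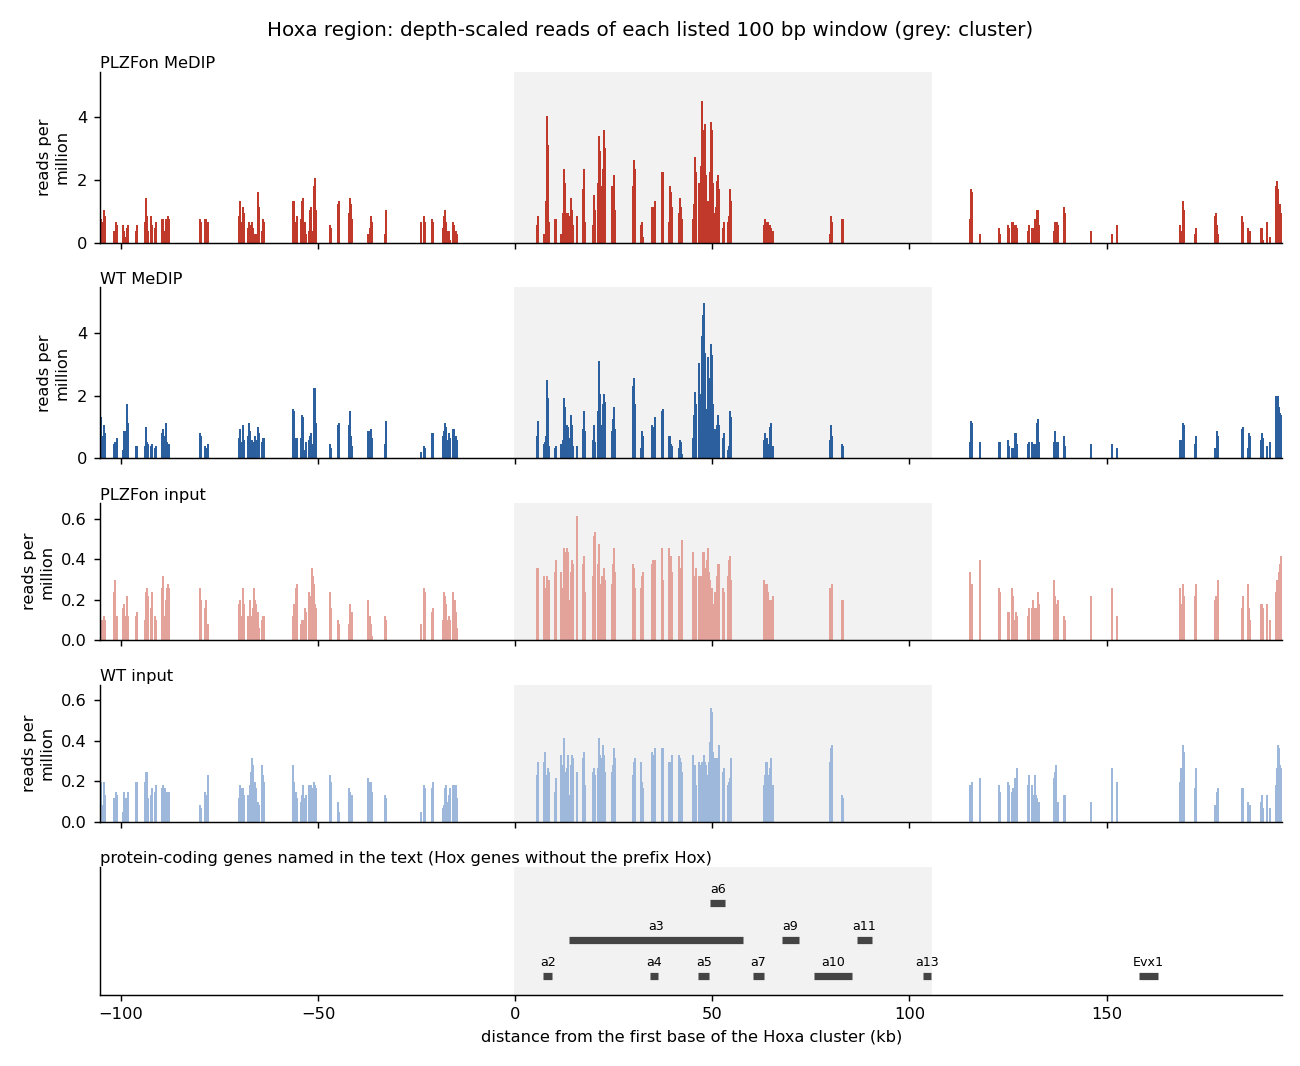
Depth-scaled reads (RPM, reads per 1000000 reads of the library) in each listed window of the Hoxa region, against distance from the first base of the cluster (kb), in PLZFon MeDIP, WT MeDIP, PLZFon input and WT input, with the protein-coding genes named in the text below (each line is 1 window, drawn wider than its 100 bp, cluster in grey). In both MeDIP libraries the tallest bars stand over Hoxa5 and few bars lie between Hoxa9 and Hoxa13, while the inputs are flatter.

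In each region the longest stretch without a listed window lay at the posterior end of the cluster. In the Hoxa region it ran over 32.3 kb, positions 52238501 to 52270800. It held Hoxa11, used in the limb and uterus, Hoxa13, used in digits and the genital tract, the antisense RNA Hoxa11os and Hottip, a long noncoding RNA known in human cells to help express posterior HOXA genes. In the Hoxd region it ran over 35 kb, positions 74646201 to 74681200, and held Evx2, Hoxd13 and Hoxd12. The next, 21.5 kb at positions 74681601 to 74703100, held Hoxd10 and Hoxd9. Of 335030 stretches between listed windows, 3002 were at least 32.3 kb long and 2477 at least 35 kb. These are counts of stretches, and the share of the listed range that such long stretches cover is larger than their share by count.

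The Hoxa genes were taken with 1000 bp on each side, and 8 of 11 held a listed window. Hoxa9, used in blood stem and progenitor cells, Hoxa11 and Hoxa13 held none. Among 9489 protein-coding genes in the listed range 10.6% held none, and their median was 1.23 windows per kb. A sum of window counts was divided by 4 to give reads, since a read was counted in about 4 windows. Hoxa2, a patterning gene of the hindbrain and branchial arches, held 12 windows, 2.67 per kb. Hoxa4 held 13, 3.10 per kb. Hoxa3, needed for the thymus and parathyroids to form, held 166 windows at 3.60 per kb. Its annotation runs over Hoxa4, Hoxa5 and Hoxa6, so most of its reads are also theirs. Hoxa7 held 10 windows, 2.0 per kb, and Hoxa10 held 7, 0.593 per kb. These 7 were all the listed windows of the posterior Hoxa stretch. Mir196b, a microRNA gene near Hoxa9, held none.

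Hoxa5 and Hoxa6 were the densest of the Hox genes. Hoxa5, known for its part in lung and airway formation, held 39 listed windows, 7.96 per kb, and ranked 16th of 9489 protein-coding genes. Hoxa6 held 38 windows, 6.44 per kb, and ranked 21st. With the bases added on each side, Hoxa5 and Hoxa6 overlap, so the windows around the start of Hoxa5 count for both. Their window counts, ranks and reads are therefore not separate observations. The 10 kb from position 52200001 to 52210000, which hold both genes, carried 68 listed windows, 32.2% of those in the cluster. Over Hoxa5 there were 231 reads in PLZFon MeDIP, 359 in WT MeDIP, 146 in PLZFon input and 173 in WT input. Scaled for depth, PLZFon MeDIP was 7.48 times its input over Hoxa5 and WT MeDIP 8.32 times its own. Of 5297 protein-coding genes with at least 100 MeDIP reads, Hoxa5 ranked 48th in PLZFon and 27th in WT by this measure. Over Hoxa6 the values were 5.19 in PLZFon and 4.57 in WT, nearer to those of all listed windows, 4.22 in PLZFon and 4.44 in WT.

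The signal over Hoxa5 lay in neighbouring runs of listed windows. A run of 14 windows (positions 52202401 to 52203800) inside the gene held 107 reads in PLZFon MeDIP and 160 in WT MeDIP. There MeDIP over input was 9.05 in PLZFon and 10.9 in WT. It contained the 3 cluster windows with the most MeDIP reads. At 52202801 to 52202900 there were 47 reads in PLZFon MeDIP and 59 in WT MeDIP, at 52202901 to 52203000 there were 38 in PLZFon MeDIP and 66 in WT MeDIP, and at 52203101 to 52203200 there were 30 in PLZFon MeDIP and 75 in WT MeDIP. These windows hold 1, 3 and 2 CpG, while the windows of their run held 52 CpG in all and up to 8 each. The peak windows were thus not the most CpG-dense of their run. A read also counts in neighbouring windows, so these numbers do not give the CpG content of the reads. The next run, of 31 windows (positions 52204001 to 52207100), was the longest in either region. It crosses the start of Hoxa5 and runs on towards Hoxa6, and its windows held 170 CpG in all. There MeDIP over input was 5.89 in PLZFon and 4.89 in WT. Its most CpG-dense window, at 52204601 to 52204700 in the promoter shown above, holds 18 CpG and had 13 reads in PLZFon MeDIP, 24 in WT MeDIP, 14 in PLZFon input and 18 in WT input. The Hoxa7 promoter was overlapped by a run of 10 windows (positions 52218501 to 52219500), with 16.8 reads in PLZFon MeDIP and 22.5 in WT MeDIP. MeDIP over input there was 2.86 (1.46 to 5.43) in PLZFon and 2.50 (1.41 to 4.36) in WT. The value of all listed windows, 4.22 in PLZFon, lay inside the PLZFon interval. That of WT, 4.44, lay just above the WT interval.

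In the Hoxd cluster, 4 of 9 genes held a listed window. Hoxd8, Hoxd9, Hoxd10, Hoxd12 and Hoxd13 held none, the last a digit patterning gene. Hoxd1, with a role in sensory neurons of the mouse, held 5 windows, 1.16 per kb, near the median of protein-coding genes, with 11.5 reads in PLZFon MeDIP and 14.3 in WT MeDIP. Hoxd4 held 7 windows, 0.753 per kb, and 2 of them lay within 1000 bp of Mir10b, a microRNA gene inside its annotation. Hoxd3, a vertebral patterning gene, held 10 windows, 0.260 per kb, in an annotation that runs over Hoxd4. Hoxd11 held 4 windows, 0.417 per kb, which were all those of the posterior stretch. Haglr, the noncoding RNA gene beside Hoxd1, held 11 windows and the window with the most MeDIP reads of the cluster. At 74756101 to 74756200 there were 15 reads in PLZFon MeDIP, 14 in WT MeDIP, 11 in PLZFon input and 11 in WT input. Its neighbour at 74756201 to 74756300 had 13 reads in PLZFon MeDIP and 14 in WT MeDIP, and the window at 74764101 to 74764200 in Hoxd1 had 12 in PLZFon MeDIP and 14 in WT MeDIP. The longest run of the Hoxd region had 9 windows and lay in the flank, in Lnpk, a gene for a protein that shapes the endoplasmic reticulum.

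**Figure D3:**
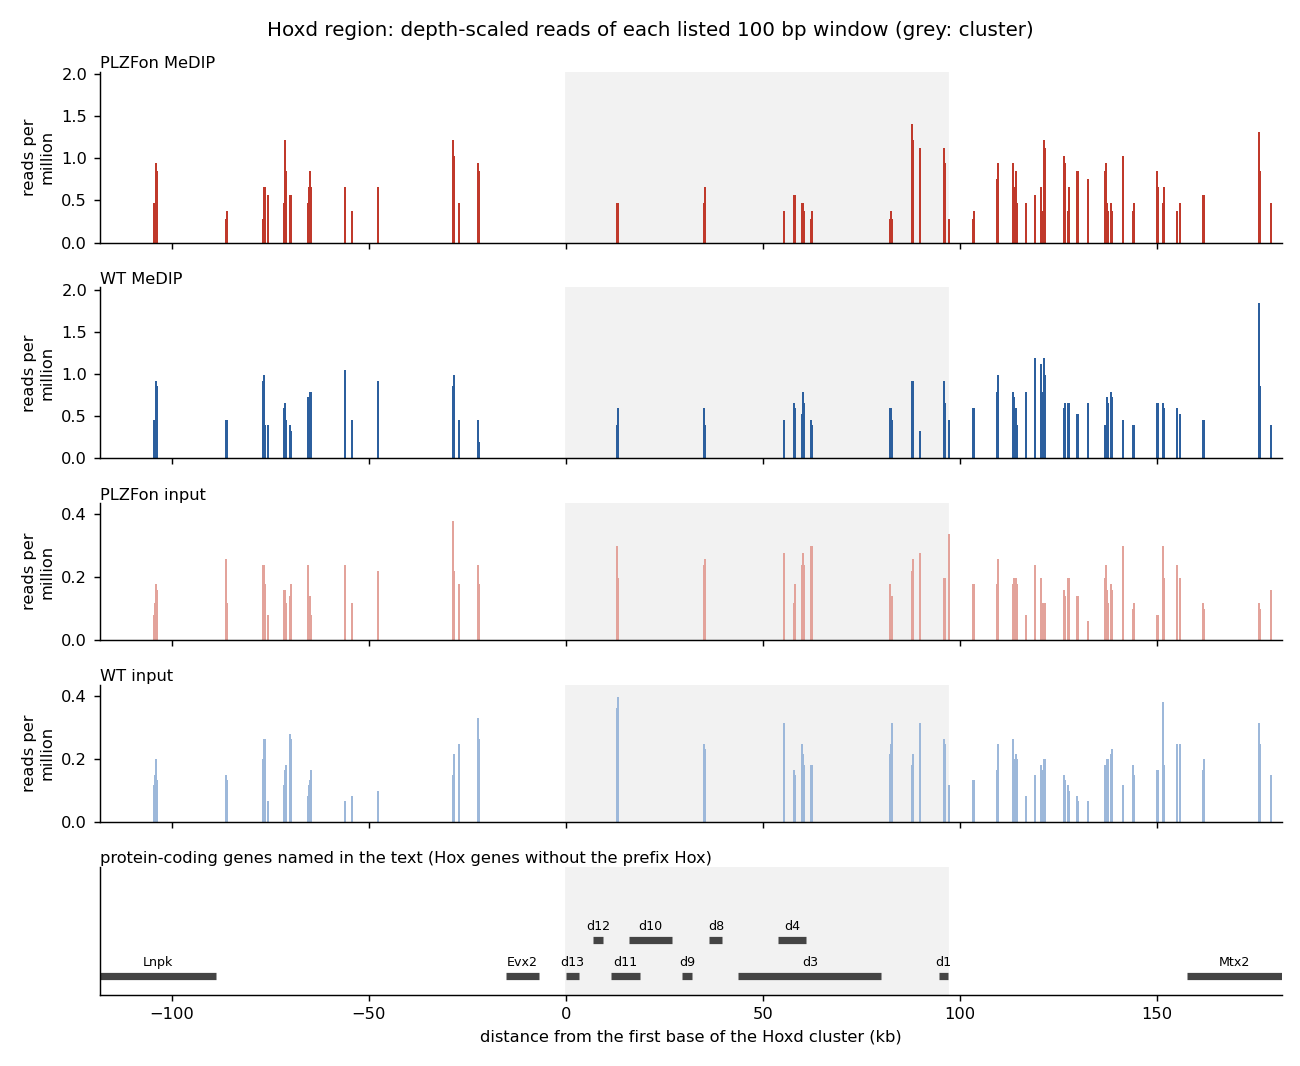
Depth-scaled reads (RPM) in each listed window of the Hoxd region, against distance from the first base of the cluster (kb), in PLZFon MeDIP, WT MeDIP, PLZFon input and WT input, with the protein-coding genes named in the text below (each line is 1 window, drawn wider than its 100 bp, cluster in grey). Listed windows are sparse from Evx2 to Hoxd8, and the highest bar, in WT MeDIP, lies in the flank over Mtx2.

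The flanks held few genes. Evx1 and Evx2, homeobox genes next to the posterior ends, held no listed window. Halr1, a noncoding RNA gene in the anterior Hoxa flank, held 31 windows, 2.42 per kb. Its windows at 52104501 to 52104600 (22 reads in PLZFon MeDIP and 34 in WT MeDIP) and at 52104401 to 52104500 (19 reads in PLZFon MeDIP and 34 in WT MeDIP) had the most MeDIP reads of the Hoxa flanks. The next, at 52348501 to 52348600 and in no annotated gene, had 21 reads in PLZFon MeDIP and 29 in WT MeDIP. In the Hoxd flanks these were 3 windows of Mtx2, a gene for a mitochondrial import protein, which adjoin from 74843901 to 74844200. They had 11, 14 and 13 reads in PLZFon MeDIP and 27, 28 and 26 reads in WT MeDIP, in the order of their positions. In the same order there were 5, 6 and 5 reads in PLZFon input and 19, 15 and 19 in WT input. Scaled for depth, their PLZFon over WT MeDIP ratios were 0.580, 0.712 and 0.712, each with an interval that includes 1.

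Listed windows inside the clusters were richer in CpG than those of the flanks. In the Hoxa cluster 25.6% held at least 5 CpG and 8 held at least 10, up to 18. In the Hoxa flanks these were 6.49% and 0 windows, with at most 6 CpG in a window. In the Hoxd cluster 18.2% held at least 5 CpG, with a maximum of 5, against 6.03% in the Hoxd flanks. Of all listed windows 7.80% held at least 5 CpG and 0.171% at least 10. The 8 Hoxa windows with at least 10 CpG averaged 1.02 RPM in PLZFon MeDIP and 0.933 RPM in WT MeDIP. Over all listed windows of that CpG number the averages were 1.96 RPM in PLZFon MeDIP and 1.94 RPM in WT MeDIP. Hoxa windows with 1 or 2 CpG went the other way, with 1.17 RPM in PLZFon MeDIP and 0.959 RPM in WT MeDIP, against 0.729 RPM in PLZFon MeDIP and 0.746 RPM in WT MeDIP over all listed windows with 1 or 2 CpG. Their inputs were higher too, at 0.323 RPM in PLZFon and 0.264 RPM in WT, against 0.194 RPM in PLZFon and 0.191 RPM in WT over all such windows. Across the table MeDIP reads increased with each class of CpG number, while in the Hoxa cluster they were highest at 3 to 6 CpG.

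Most Hox promoters had no listed window, as did most CpG-dense promoters elsewhere. Promoter sequences matched 18 of the 20 Hox genes and gave 20 promoters, of which 18 had no listed window, 8 of 10 in Hoxa and 10 of 10 in Hoxd. Among the other promoters in the listed range with 20 to 29 CpG, 97.7% had none (2126 of 2175). Of the 9 Hox promoters in that class, the Hoxa5 promoter was the only one with a listed window. Its 4 windows had 14, 13, 16 and 24 reads in PLZFon MeDIP and 39, 24, 18 and 28 reads in WT MeDIP, in the order of their positions. Among promoters with at least 30 CpG, 99.3% had none, and both Hox promoters of that class, those of Hoxa13 and Hoxd13, had none. Among promoters with 5 to 9 CpG, where Hoxa7 stands, 61.5% had none. The 3 Hox promoters with 0 to 4 CpG had none, as did 84.3% of others, and the 3 with 10 to 19 CpG had none, as did 86.9% of others. Gm15050, a noncoding RNA gene within the Hoxa3 annotation, has a promoter of 25 CpG that was overlapped by 4 listed windows, with 23 reads in PLZFon MeDIP and 19.8 in WT MeDIP.

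**Figure D4:**
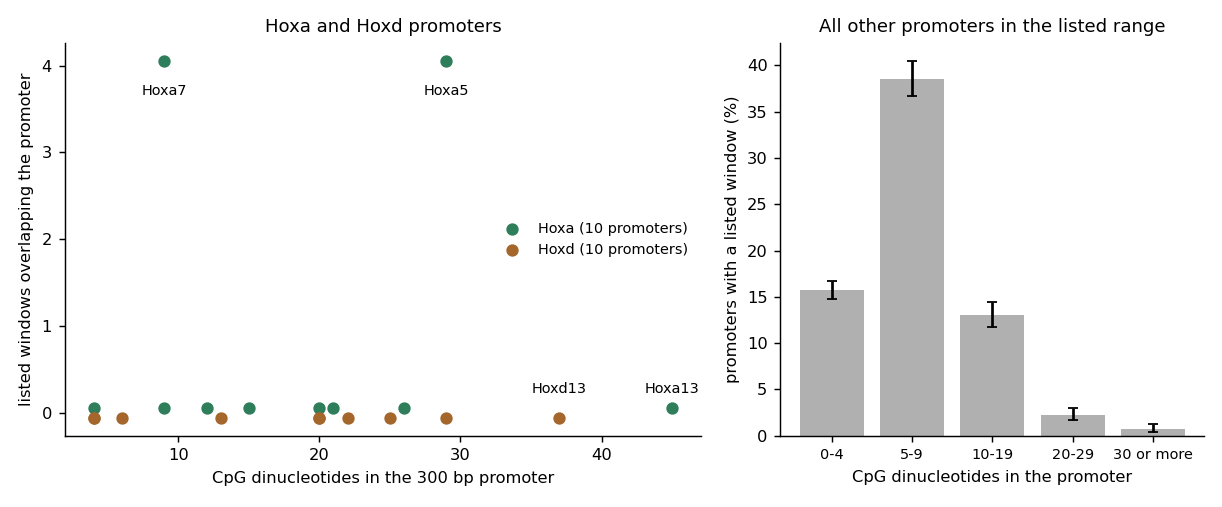
Left, the number of listed windows overlapping each Hoxa (green) and Hoxd (brown) promoter against its number of CpG, points offset slightly to show overlaps. Right, the share of all other promoters in the listed range that a listed window overlapped, by CpG number, with 95% exact binomial intervals; only Hoxa5 and Hoxa7 stand above 0 on the left, and the share is lowest in the most CpG-dense classes on the right.

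The second comparison asked whether the clusters differed between PLZFon and WT cells. Over the Hoxa cluster the depth-scaled MeDIP ratio, PLZFon over WT, was 1.13 (1.03 to 1.25), from 766 reads in PLZFon MeDIP and 963 in WT MeDIP. The inputs had the same ratio over the same windows, 1.13 (1.02 to 1.24), and the MeDIP ratio divided by the input ratio was 1.0. Over the Hoxa flanks MeDIP stood at 0.956 (0.852 to 1.07) and the inputs at 1.09 (0.972 to 1.22). Over the Hoxd cluster, with 53.8 reads in PLZFon MeDIP and 74 in WT MeDIP, MeDIP stood at 1.03 (0.714 to 1.49) and the inputs at 0.896 (0.671 to 1.19). Over the Hoxd flanks MeDIP stood at 0.964 (0.801 to 1.16) and the inputs at 1.01 (0.847 to 1.20). All listed windows together stood at 0.964 in MeDIP and 1.01 in the inputs. Only in the Hoxa cluster did an interval of these 4 segments lie off 1, and there the inputs differed as much under scaling by library totals. With TMM factors the MeDIP ratio of the Hoxa cluster was 1.17 (1.07 to 1.29), and with the median of ratios 1.19 (1.08 to 1.31). The inputs were not rescaled in these ways.

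The ratio was not even along the Hoxa cluster. The 10 kb with Hoxa5 and Hoxa6 stood at 0.972 (0.838 to 1.13). Without them the cluster stood at 1.27 (1.12 to 1.44). The input ratio of the same windows was not taken. The inputs stood at 1.03 (0.864 to 1.22) over the 10 kb left out and at 1.13 (1.02 to 1.24) over the whole cluster. Whether 1.27 differs from the input ratio of the remaining windows was not tested. In 2 of 25 bins of 10 kb with reads in the Hoxa region the interval lay above 1, and in 0 below. Of all 87035 such bins in the table, 0.773% lay above 1 and 1.49% below. One, from 52170001 to 52180000, had a MeDIP ratio of 1.44 (1.14 to 1.83), where the inputs stood at 1.30 (1.02 to 1.65). The other, from 52190001 to 52200000, had a MeDIP ratio of 1.56 (1.14 to 2.14), where the inputs stood at 1.18 (0.914 to 1.51). Of the 22 Hoxd bins with reads, 0 had an interval off 1. These intervals were read without adjustment for their number.

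Gene by gene, the MeDIP ratio of Hoxa2 was 1.59 (1.05 to 2.41), with 52.8 reads in PLZFon MeDIP and 47.3 in WT MeDIP, beside an input ratio of 1.35 (0.870 to 2.10). That of Hoxa3 was 1.13 (1.02 to 1.26), beside an input ratio of 1.15 (1.03 to 1.28). Hoxa4 stood at 1.23 (0.788 to 1.92), Hoxa5 at 0.917 (0.774 to 1.08), Hoxa6 at 0.998 (0.798 to 1.25), Hoxa7 at 1.06 (0.528 to 2.09) and Hoxa10 at 0.917 (0.401 to 2.01), all with intervals that include 1. Of the Hoxd genes, Hoxd1 stood at 1.15 (0.480 to 2.69), Hoxd3 at 0.736 (0.325 to 1.58) and Hoxd4 at 0.712 (0.273 to 1.71). Each of these 3 intervals includes both 1 and 0.5.

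**Figure D5:**
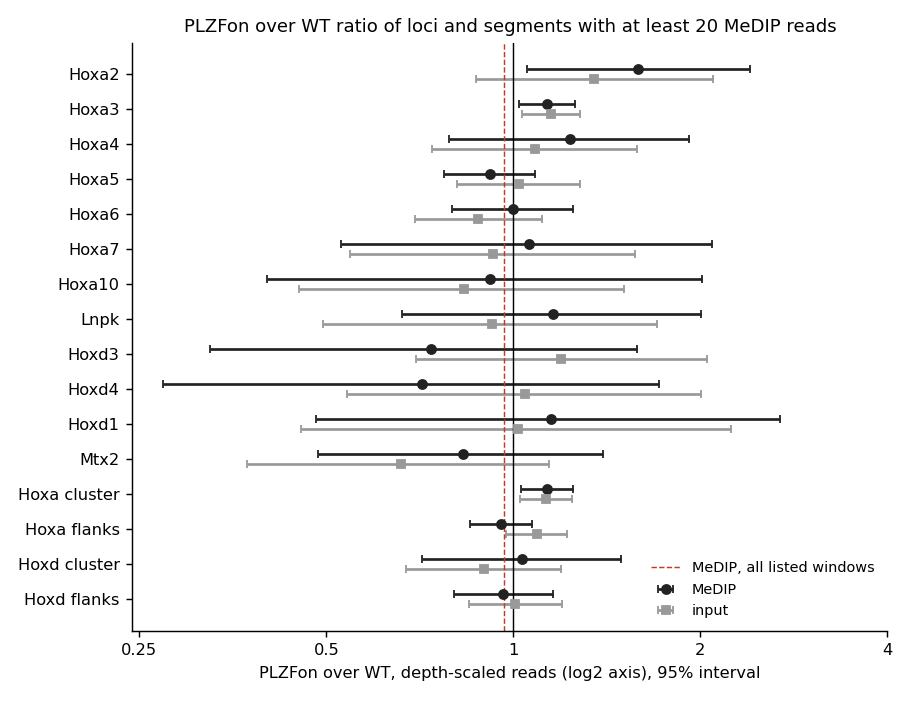
PLZFon over WT ratio of depth-scaled reads (log2 axis) for each Hox gene, Lnpk and Mtx2 with at least 20 MeDIP reads, and for the clusters and flanks, in MeDIP (black) and input (grey), with 95% exact binomial intervals for counting error alone. The dashed line is the MeDIP ratio of all listed windows, 0.964; Hoxa2, Hoxa3 and the Hoxa cluster have MeDIP intervals above 1, and their input points also lie above 1.

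A window passed the 2-fold rule when it had 20 or more MeDIP reads and differed by 2-fold or more, up or down, with 1 outside its interval. Of 259 member windows with at least 20 reads, 8 passed (3.09%), where 3.3% of all such windows in the table passed. They were 3 higher in PLZFon (1.16%), where 1.13% passed in the table, and 5 lower (1.93%), where 2.17% passed. The share was near the background in both directions under this scaling. With TMM factors 7 were higher (2.70%), where 1.80% passed in the table, and 5 lower (1.93%), where 1.74% passed. In the inputs 14 of 375 windows passed as higher (3.73%, against 1.92% in the table) and 9 as lower (2.4%, against 1.43%), and 10 of those 14 lay in the Hoxa cluster.

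The 8 windows formed 3 groups of neighbours. Those that were lower in PLZFon inside the cluster were 3 adjoining windows in Hoxa5, 87 to 386 bases downstream of its annotated start. At 52204301 to 52204400 there were 14 reads in PLZFon MeDIP, 49 in WT MeDIP, 22 in PLZFon input and 14 in WT input, a MeDIP ratio of 0.407 (0.207 to 0.749). Its neighbours had ratios of 0.435 (0.200 to 0.874) and 0.438 (0.209 to 0.854). In the neighbour with 0.435 the inputs went the other way, with a ratio of 2.13 (1.04 to 4.58). The windows share reads, so they count as 1 observation. The higher group was 3 adjoining windows between Hoxa4 and Hoxa5, inside the Hoxa3 annotation. At 52194801 to 52194900 there were 17 reads in PLZFon MeDIP, 7 in WT MeDIP, 16 in PLZFon input and 16 in WT input, a ratio of 3.46 (1.36 to 9.86). The remaining 2, lower in PLZFon, adjoined in the anterior Hoxa flank and lay in no annotated gene. At 52056801 to 52056900 there were 5 reads in PLZFon MeDIP, 26 in WT MeDIP, 11 in PLZFon input and 4 in WT input, a ratio of 0.274 (0.0821 to 0.725). No Hoxd window passed.

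The authors' deposited table called none of the 622 windows at an adjusted p below 0.05, where 0.0144% of all listed windows were called, and each member had an adjusted p of 1. At an unadjusted p below 0.05 it had 20 of the members (3.22%), where 3.31% of the table passed. The smallest unadjusted p of a member in the authors' deposited table was 0.00384, for the Hoxa5 window at 52204301, with a log2 fold change of -1.24. The authors' relative methylation score had a median of 0.59 in PLZFon and 0.62 in WT over the Hoxa cluster windows. Over all listed windows its medians were 0.57 in PLZFon and 0.63 in WT.

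In both clusters the listed windows had more input reads on average than those of the flanks. Listed windows of the Hoxa cluster averaged 0.307 RPM in PLZFon input and 0.272 RPM in WT input. Those of its flanks averaged 0.174 RPM in PLZFon input and 0.160 RPM in WT input. Over the Hoxd cluster the inputs averaged 0.209 RPM in PLZFon and 0.234 RPM in WT. Over the Hoxd flanks they averaged 0.168 RPM in PLZFon and 0.166 RPM in WT. MeDIP over input was 4.44 (4.02 to 4.91) in PLZFon and 4.43 (4.04 to 4.86) in WT over the Hoxa cluster, and 4.06 (3.60 to 4.59) in PLZFon and 4.63 (4.16 to 5.16) in WT over its flanks. The intervals of the Hoxa cluster and its flanks overlap in both genotypes. The part of the input in the density of listed windows was not tested. Over the Hoxd cluster MeDIP over input was 2.93 (2.04 to 4.16) in PLZFon and 2.53 (1.87 to 3.42) in WT, and over its flanks 3.85 (3.18 to 4.66) in PLZFon and 4.02 (3.41 to 4.75) in WT. In the posterior Hoxa stretch it was 2.68 (1.19 to 5.75) in PLZFon and 2.44 (1.28 to 4.51) in WT. In the anterior stretch it was 4.58 (4.13 to 5.07) in PLZFon and 4.62 (4.20 to 5.09) in WT. Windows were listed by their MeDIP reads, which raises all of these values. Both MeDIP libraries exceeded their inputs in every one of these segments, the PLZFon library included. The listing rule itself favours this, so it cannot settle the conflict between the antibody label and the titles.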

How the data were processed

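DNA of thymic NKT cells from PLZFon and WT mice was sequenced after MeDIP and as input, 1 library per group, and grouped by title. Reads were aligned with BWA to mm10 and edgeR was used, per the submitters' processing notes, which give no versions; alignments were sorted and unique-filtered, per the file headers. The values deposited were raw counts of reads in 100 bp windows on chromosomes 1 to 7 (chromosome 7 up to position 139972600). Beside them stood RPKM values, a relative methylation score and a CpG factor (a score), log2 fold changes, p-values and adjusted p-values, all computed by the authors, per the file headers. Another 6 columns of per-sample values were not used.

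Library totals were recovered as the ratio of counts to RPKM, and ratios were scaled by them. Each read was assumed to count in 4 windows, the distance beyond which input counts of windows diverged little further; in the MeDIP libraries this came later. Only listed windows were summed. Intervals are exact (Clopper-Pearson), 95%, and PCR duplicates and differences between mice are not covered. Genes, without strand, came from RefSeq (GRCm38.p6), promoters with strand likewise. The members, lists and rules were chosen with earlier results of these data known. Named by rule were the Hox and Evx genes, per segment the 3 windows with the most MeDIP reads, the windows past the 2-fold rule (neighbours given together), the 2 longest stretches without a listed window per region, and of the lists of developmental genes and Hox regulators the 2 with the most and fewest windows per kb; 1 item is withheld and not reported here. Other genes, runs, bins and promoters of the regions were picked after their values were seen, and not every gene is named. One list planned as homeobox genes was renamed, since it holds other transcription factors. Scaling by TMM (edgeR 4.0.16) and by the median of ratios (DESeq2 1.42.0), other read minimums, bounds and flanks were alternatives. Tools were Python 3.11.15, numpy 2.4.6, pandas 2.3.3, scipy 1.17.1, matplotlib 3.10.9 and R 4.3.3.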

Additional observations from a re-analysis of the deposited data

How the results depend on the processing

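Of 83 alternatives to 15 results, 64 kept the value within its interval or, for the count of windows, within 1.5 times. The Hoxa density ratio, 1.48, was 1.01 with Evx1 inside the bounds, 2.06 with flanks of 50 kb, 2.12 and 2.79 with at least 15 and 20 MeDIP reads per window, and 2.33 with at least 3 CpG. With alternatives added after seeing the data it was 2.22 for the anterior stretch up to Hoxa7 alone and 0.137 for that from Hoxa9 to Hoxa13 alone, which reverses it. The Hoxd density ratio, 0.595, was 0.218 for the stretch from Hoxd9 to Hoxd13 alone (added likewise). For Hoxd1 to Hoxd8 alone (added) it was 0.722 (0.449 to 1.12), an interval that takes in 1. The MeDIP ratio of the Hoxa cluster, 1.13, was 1.27 without the 10 kb of Hoxa5 and Hoxa6 and 1.0 when divided by the input ratio (both added). The 1.27 was not divided by an input ratio. With at least 20 MeDIP reads per window, MeDIP over input was 5.82 in PLZFon and 5.62 in WT over the Hoxa cluster, 6.31 in PLZFon and 6.84 in WT over its flanks, 5.68 in PLZFon and 4.29 in WT over the Hoxd cluster, and 4.88 in PLZFon and 5.65 in WT over its flanks. Such a minimum selects windows by MeDIP reads. The 8 of 259 windows past the 2-fold rule were 5 of 121 with at least 30 reads: 1 higher (0.826%, against 0.949% in the table) and 4 lower (3.31%, against 2.41%). The cause of the other shifts was not tested. TMM factors moved all ratios by 0.05 and the median of ratios by 0.08 on the log2 scale. No paired analysis was possible because each group has 1 library. Depth limits the Hoxd cluster most, where 7 windows had at least 20 MeDIP reads. No chromosome beyond 7 was analysed here, so the Hoxb and Hoxc clusters are not covered.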

Other observations

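Other genes of development and of Hox regulation give a frame for these values. Of 43 further developmental transcription factor genes, Evx1 and Evx2 included, 41 lay in the listed range and 21 of them (51.2%) held no listed window, as did 3 of 11 Hoxa genes and 5 of 9 Hoxd genes; over all protein-coding genes the share was 10.6%. The median of the list was 0 windows per kb, that of the Hoxa genes 2 and that of the Hoxd genes 0. The list's densest genes were Lhx8, a forebrain regulator, at 1.48 per kb and Nkx1-2 at 1.45 per kb, both below Hoxa2 to Hoxa7. Of 25 Hox cofactors and chromatin regulators, 15 lay in the listed range and all 15 held listed windows, with a median of 0.998 per kb. The densest were the Polycomb genes Phc2 at 2.30 per kb and Phf19 at 1.98 per kb, and the sparsest were Kmt2c, a histone methyltransferase gene, at 0.340 per kb and Ezh2, the Polycomb methyltransferase gene, at 0.343 per kb. The median PLZFon over WT MeDIP ratio was 0.944 over the 12 developmental genes with at least 20 MeDIP reads and 0.973 over the 15 cofactors and regulators, against 0.959 over 7668 protein-coding genes. The highest cofactor ratio was that of Bmi1, a Polycomb gene, at 1.61 (1.07 to 2.42), beside an input ratio of 1.80 (1.28 to 2.57).

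MeDIP reads are no measure of cell type. The T and NKT cell marker genes (6 in range) had a MeDIP over input median of 3.9 in PLZFon and 3.87 in WT, the B cell markers (4) 3.44 in PLZFon and 4.15 in WT, and the myeloid markers (2 of 4 in range) 3.56 in PLZFon and 3.88 in WT.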
